A study of Mus musculus with 10 samples.

Results

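Myc and the genes of its Max-Mxd network were followed in plasma cells of mouse bone marrow. The network was taken as 10 genes, namely Myc, Mycn, Mycl, Max, Mxd1, Mxd3, Mxd4, Mxi1, Mnt and Mga, and each was found by its symbol among probe sets with exactly 1 gene symbol. All 10 were measured, out of 22180 genes in the value table, on 11 of 23521 such probe sets. Where a gene had several probe sets, that with the highest mean level over all arrays stood for it, a choice that arose for Mxi1 alone. The members were thus chosen by name, and the probe set by its mean level over both groups. Of the members, 9 had a single probe set. The network was proposed with the difference in Myc between the groups already known, so that this difference is given as a description and supports nothing further.

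The arrays hold RNA of sorted cells from 10 mice of the strain B6.BLIMP1 +/GFP, which carry a green fluorescent reporter at 1 allele of Prdm1, the gene of the plasma cell factor Blimp1. All mice, in both groups, had this reporter allele, and from all of them B220-negative, Blimp1-positive cells were taken, B220 being a form of CD45 that plasma cells lose. One group of 5 mice was untreated and the other group of 5 had received rapamycin, an inhibitor of mTOR complex 1. Dose, duration, age and sex are not given in the labels used here.

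Myc proteins are transcription factors that bind DNA as pairs with Max, at the E-box sequence, and raise the transcription of genes for growth, metabolism and division. The Mxd proteins, Mxi1 and Mnt pair with the same partner, bind the same sites and recruit Sin3 corepressors, and Mga, a very large protein, pairs with Max within a Polycomb-type repressor complex. In B cells, Blimp1 represses Myc as the cells become plasma cells and stop dividing.

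Values are log2 levels from RMA, a method that corrects background, equalises the distributions of the arrays and summarises the probes of each set. A difference is rapamycin minus untreated, so that 1 unit is a doubling. Plasma cell genes were abundant in both groups, with untreated means of 12.25 ± 0.02 for Xbp1, 11.03 ± 0.10 for Irf4 and 10.01 ± 0.11 for Sdc1, the gene of CD138 (SD, n = 5). Their rapamycin means were 12.27 ± 0.03, 11.14 ± 0.07 and 10.07 ± 0.26. In untreated arrays Pax5, the B cell identity factor, was at 4.98 ± 0.07, near the array medians of 4.92 to 4.99. There Ms4a1, the gene of the B cell antigen CD20, was at 7.70 ± 0.31. The untreated mean of Xist was 3.83 ± 0.10 and its rapamycin mean 9.24 ± 0.28, and the Y-linked Eif2s3y had means of 8.03 ± 0.46 and 3.84 ± 0.24. Since these transcripts part the arrays exactly as the treatment does, an effect of rapamycin and one of sex cannot be told apart in what follows. Rapamycin replicate 4 stood apart on the first principal component of all genes, with a score of 22.3 against 4.17 to 8.85 for the other rapamycin arrays. Untreated replicate 1, at -1.16, lay nearest to the rapamycin arrays among the untreated ones (-8.09 to -15.4).

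Promoters of the network genes and of Myc targets were read for the E-box, the site at which Myc and its antagonists compete. Its canonical form, CACGTG, reads the same on both strands. It was searched in the 250 bases before each RefSeq start site (build GRCm38.p6), and 6.86% of 27025 genes with a promoter entry held it. Entries were found for 9 members, all but Myc. Most of the 9 encode antagonists, namely Mxd1, Mxd3, Mxd4, Mxi1, Mnt and Mga. The motif was held by 2 of the 9, both of them antagonists. With antagonists in the majority, nothing is read from the role of these 2 members, Mnt and Mxd4. Their stretches of 60 bases around it are shown 5′ to 3′ on the gene's strand, with the E-box in capitals, together with the 250 bases before Cdk4, a cell cycle kinase gene and classical Myc target with 4 copies.
Mnt, chr11:74830774-74830833, plus strand: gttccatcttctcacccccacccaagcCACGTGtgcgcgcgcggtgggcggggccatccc
Mxd4, chr5:34187897-34187956, minus strand: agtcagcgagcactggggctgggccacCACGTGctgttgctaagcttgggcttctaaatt
Cdk4, chr10:127063285-127063534, plus strand: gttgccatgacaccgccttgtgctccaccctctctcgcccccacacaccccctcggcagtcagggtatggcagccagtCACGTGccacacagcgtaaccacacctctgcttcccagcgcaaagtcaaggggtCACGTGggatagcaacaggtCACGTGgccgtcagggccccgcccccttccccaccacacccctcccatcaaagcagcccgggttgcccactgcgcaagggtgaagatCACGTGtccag
A match is a description of these letters and does not show binding. The levels of these genes are given with their groups below.

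Myc, on chromosome 15, was the member whose level differed between the groups. In untreated arrays 1 to 5 its log2 level was 7.66, 7.13, 7.27, 7.35 and 7.05, and in rapamycin arrays 1 to 5 it was 7.83, 8.17, 7.94, 8.19 and 8.18. Every rapamycin array was thus above every untreated array, and the smallest gap was that between untreated replicate 1 and rapamycin replicate 1. The group means were 7.29 ± 0.24 and 8.06 ± 0.16 (SD, n = 5 each), a difference of 0.77 (95% confidence interval 0.52 to 1.02), or 1.70-fold. In limma's fit across all 22180 genes Myc ranked 17 by p, with a Benjamini-Hochberg adjusted p of 0.00859. In that fit 0.153% of all genes were called at an adjusted p under 0.05, 0.126% as higher and 0.0271% as lower, and of the 10 members 1 was called as higher and 0 as lower. Nothing is read from this count, because the call was known when the members were chosen. The Myc call was kept when any single array was left out, with adjusted p from 0.00195 to 0.0384, and lost without rapamycin replicate 4 and untreated replicate 3 together (adjusted p = 0.0874 in limma). The call was also lost with the replicate numbers of the titles as a block (adjusted p = 0.0684 in limma). Deviations of same-numbered arrays had r from -0.08 to 0.04. In bulk RNA, more transcript in each cell and more cells with the transcript cannot be told apart.

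Mycn and Mycl, the Myc paralogues best known from neural tissue and from lung and dendritic cells, were at low signal. Mycn was at 3.79, 3.85, 3.78, 3.74 and 3.59 in untreated arrays and at 3.73, 3.88, 3.83, 4.08 and 3.72 in rapamycin arrays. These values straddle the lower quartile of all probe sets, 3.81 to 3.87, and the groups overlap. The difference was 0.10 (95% confidence interval -0.08 to 0.27, limma adjusted p = 0.796). Mycl was at 4.20 ± 0.18 untreated and 4.33 ± 0.16 with rapamycin, a difference of 0.13 (-0.08 to 0.34, limma adjusted p = 0.759), also with overlap. At such signals a change of a rare transcript may not be measurable.

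**Figure D1:**
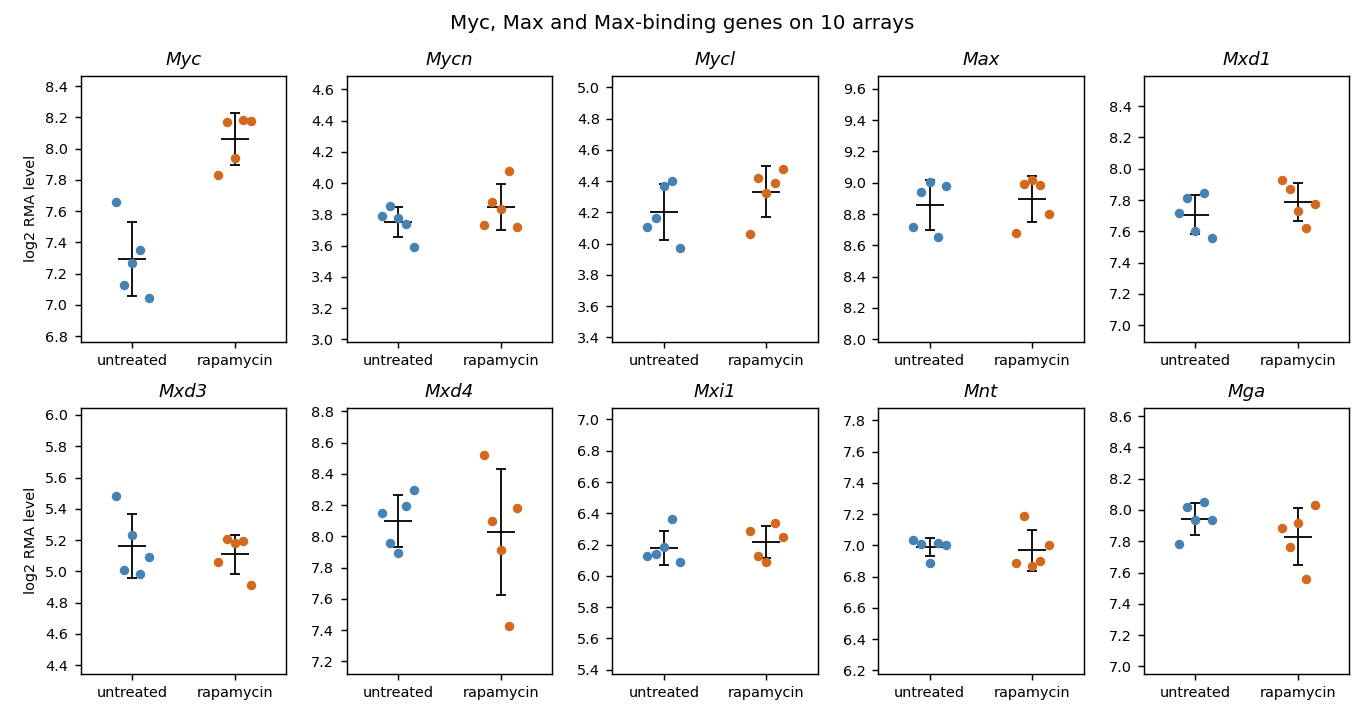
Log2 RMA level of the 10 network genes (vertical axes, each panel spanning the same number of log2 units) on 5 untreated and 5 rapamycin arrays. Points are arrays in replicate order, and black marks are means ± SD. Myc is the panel in which the groups do not overlap, and Mxd4 spreads from 7.42 to 8.52 among rapamycin arrays.

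Max, the partner shared by the Myc, Mxd, Mnt and Mga proteins, lay in the upper quartile of the arrays, which begins at 6.51 to 6.58. It was at 8.72, 8.94, 9.005, 8.65 and 8.98 in untreated arrays and at 8.68, 8.99, 9.02, 8.98 and 8.80 in rapamycin arrays. The groups overlapped over nearly their whole range. The difference of 0.04 had a 95% confidence interval from -0.17 to 0.24 (limma adjusted p = 0.955).

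The 4 genes of the Mxd family, antagonists that are typically high in cells leaving the cycle, did not pass the test. Mxd1, found in many differentiated blood cells, was at 7.71 ± 0.13 untreated and 7.79 ± 0.12 with rapamycin, a difference of 0.08 (-0.11 to 0.27, limma adjusted p = 0.861). Mxd3, a member that in mouse is linked to proliferating cells, was near the array medians, at 5.16 ± 0.20 and 5.11 ± 0.13. Its difference of -0.05 had an interval from -0.27 to 0.17, and untreated replicate 1, at 5.48, was its highest array. Mxi1 was at 6.18 ± 0.11 and 6.22 ± 0.10 on its brighter probe set, with a difference of 0.04 (-0.15 to 0.22). On its dimmer probe set it was at 5.61 ± 0.27 and 5.60 ± 0.35, with a difference of -0.01 (-0.35 to 0.33), so that neither probe set showed a difference beyond its error.

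Mxd4, whose promoter is printed above, was at 8.15, 7.96, 7.90, 8.19 and 8.30 in untreated arrays. In rapamycin arrays it was at 8.52, 8.10, 7.91, 7.42 and 8.18. The rapamycin group held both the highest array, replicate 1, and the lowest, replicate 4, the array that stood apart on the first principal component. Its SD was 0.40 in rapamycin arrays, larger than that of 98.9% of all genes, and 0.17 in untreated arrays, larger than that of 63.6%. The difference between the groups was -0.07 (-0.40 to 0.26, limma adjusted p = 0.939), and it was 0.08 without rapamycin replicate 4, so that no direction can be given.

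Mnt and Mga, the remaining antagonists, had differences within their error. Mnt, a protein of cycling and resting cells alike and the other member with an E-box in its promoter, was at 7.04, 7.01, 6.89, 7.01 and 7.00 in untreated arrays and at 6.89, 7.19, 6.87, 6.90 and 7.00 in rapamycin arrays. It had the smallest spread of all members in untreated arrays, an SD of 0.06, and its difference was -0.02 (-0.20 to 0.16, limma adjusted p = 0.976). Mga was at 7.94 ± 0.10 and 7.83 ± 0.18, a difference of -0.11 (-0.32 to 0.09, limma adjusted p = 0.796). Its lowest value, 7.56, was in rapamycin replicate 4, as for Mxd4.

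Set side by side, the intervals of the 9 other members all ended at or below 0.34, while that of Myc began at 0.52. Of these 9 genes, 5 had a positive and 4 a negative difference, and 0 passed the test, in either direction, with 0 at an unadjusted p under 0.05 in limma. Among all genes 9.39% had such a p, 6.13% with a positive and 3.26% with a negative difference. Over the 10 members the median difference was 0.04, beside 0.01 over all genes tested. At their ends the intervals reach 0.34 in Mycl and -0.40 in Mxd4, so that changes of this size were not excluded.

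**Figure D2:**
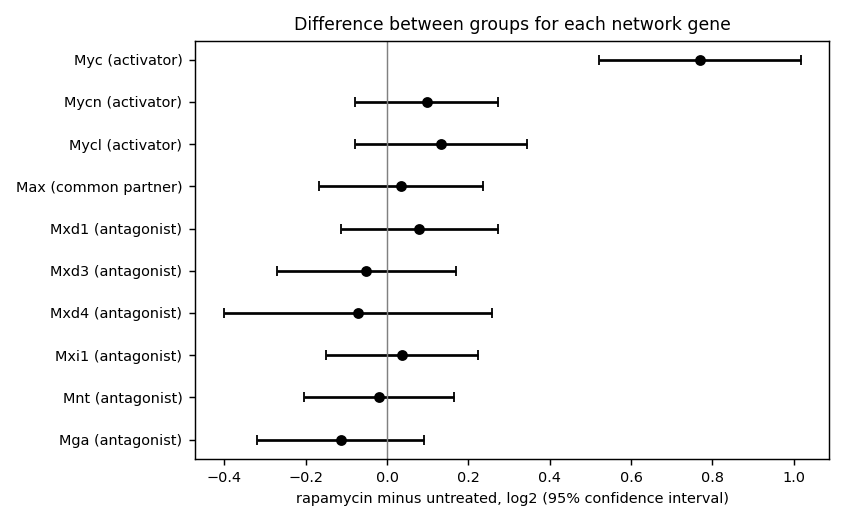
Difference between rapamycin and untreated arrays (horizontal axis, log2) for each network gene, with its 95% confidence interval from limma, 5 arrays per group. The interval of Myc runs from 0.52 to 1.02, and those of the other 9 genes include 0.

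Arrays of a group also differed among themselves, and the members were compared with Myc in these deviations from the group means over the 10 arrays. Pearson's r with Myc was 0.53 for Mxd3, 0.48 for Mycl, 0.40 for Mycn, 0.39 for Mnt, 0.17 for Mxi1, -0.03 for Mxd1, -0.25 for Max, -0.29 for Mxd4 and -0.43 for Mga. All genes were read on the same 10 arrays, which were normalized together, and these values are descriptions. Without untreated replicates 1 and 5, the arrays where Myc lay farthest from its median deviation, r was 0.07 for Mxd3, 0.79 for Mycl, 0.26 for Mycn, 0.47 for Mnt, 0.26 for Mxi1, -0.37 for Mxd1, 0.11 for Max, -0.38 for Mxd4 and -0.31 for Mga. The value for Mxd3 thus rested on those arrays, and that for Max changed its sign. Among 10339 other named genes of above-median level the genes most like Myc by this measure were Rbx1-ps (r = 0.92), Il27, Ftmt, Crybb1 and Mir1963 (r = 0.91 each). For these 5 r was 0.83, 0.79, 0.80, 0.87 and 0.86 without those arrays, and their own differences between the groups, from -0.21 to 0.12, did not pass the test in limma. These 5 were picked as the highest r among 10339 genes, and the 8 arrays kept were part of that choice. Neither set of values can therefore test a likeness to Myc.

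Among the genes that Myc is known to induce, 42 of 51 listed targets were measured and 0 were called as higher or lower in limma. With an unadjusted p under 0.05, 1 target was higher and 2 were lower. Their median difference was 0.01, beside 0.01 over all genes, and the list mean was 7.61 to 7.71 in untreated and 7.62 to 7.71 in rapamycin arrays. The higher target was Ccnd2, the gene of cyclin D2, which drives entry into the cell cycle. It was at 9.40, 9.34, 8.91, 9.22 and 9.58 in untreated arrays and at 9.97, 9.72, 9.71, 9.80 and 9.93 in rapamycin arrays, without overlap, a state reached by 2.06% of all genes. Its difference of 0.54 (SE 0.11) had a limma adjusted p of 0.063, short of the threshold. The lower targets were Tert, the telomerase gene, with -0.23 (adjusted p = 0.418), and Hspd1, a mitochondrial chaperonin gene, with -0.21 (adjusted p = 0.517).

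Among targets with a promoter entry, 8 of 35 held an E-box in the bases searched before the start site, or 22.9%. Of the genes tested on the arrays, 16990 had an entry and 7.83% of these held it. Ccnd2 had no entry and is not among the 35 targets. The 8 targets were Cdk4, Dnph1, Eif4a1, Eif4e, Hspd1, Ldha, Nme1 and Paics. Their differences ran from -0.21 to 0.10 with a median of 0.02, beside a median of 0.00 for the 27 targets without it there. Bases after the start site were not searched, so any of these 27 may hold an E-box elsewhere. Cdk4, with the 4 copies shown above, differed by 0.01, and Ldha, the lactate dehydrogenase gene with 2 copies, by 0.06. Some of these targets were dim, not far above the array medians of 4.92 to 4.99. Untreated and rapamycin means were 5.19 and 5.26 for Ldha, 5.57 and 5.36 for Hspd1, and 5.64 and 5.66 for Dnph1. The repressed targets were 6 of 7 measured, with 0 called and a median difference of -0.02. Ndrg1 had a difference of 0.19, Cdkn2b of -0.15 and Cdkn1a, a cell cycle inhibitor gene, of -0.09, with adjusted p from 0.582 to 0.89 in limma.

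Myc sits in a wider network, which was measured in the same fit. The list of the Mlx branch, whose factors sense glucose and compete at related sites, also held Zbtb17, Txnip and Arrdc4. On this list 0 of 6 genes were called and the median difference was 0.09. Zbtb17, which encodes Miz1, through which Myc represses genes, had a difference of 0.33 (SE 0.10, limma adjusted p = 0.217). Mlxip, the glucose sensor MondoA, had 0.30 (SE 0.10, adjusted p = 0.293), with 4 of its 5 rapamycin arrays above all untreated ones and replicate 4 below them. Txnip, a MondoA target, differed by 0.10 (adjusted p = 0.702). Of the Myc cofactors 11 of 13 were measured and 0 called, with a median of -0.05. Ccnt1, a subunit of the elongation factor P-TEFb, was 7.32 ± 0.08 and 7.15 ± 0.06 without overlap, at an adjusted p of 0.51. Wdr5 had a difference of 0.14 and Cdk9 of -0.09.

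The corepressors that work with Mxd and Mnt (9 of 11 measured) had a median of 0.00, with 0.20 for Sap30, -0.15 for Arid4b and 0.13 for Suds3, and 0 were called. Partners of Mga in Polycomb-type complexes (10 of 10 measured) had a median of 0.08 and 0 were called. The smallest p in that list was that of Yaf2, with a difference of 0.39 (SE 0.13, limma adjusted p = 0.339). E2f6 and Pcgf6, subunits of the complex that holds Mga, differed by 0.17 and 0.16. Genes of Myc protein turnover (11 of 13 measured) had a median of -0.05, again with 0 called. Among them, Gsk3b, the kinase that marks Myc for degradation, had a difference of -0.28 (SE 0.13, adjusted p = 0.508), Cip2a, which protects Myc from dephosphorylation, -0.26 (adjusted p = 0.465), and Ppp2r5a, a phosphatase subunit, -0.21 (adjusted p = 0.578).

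**Figure D3:**
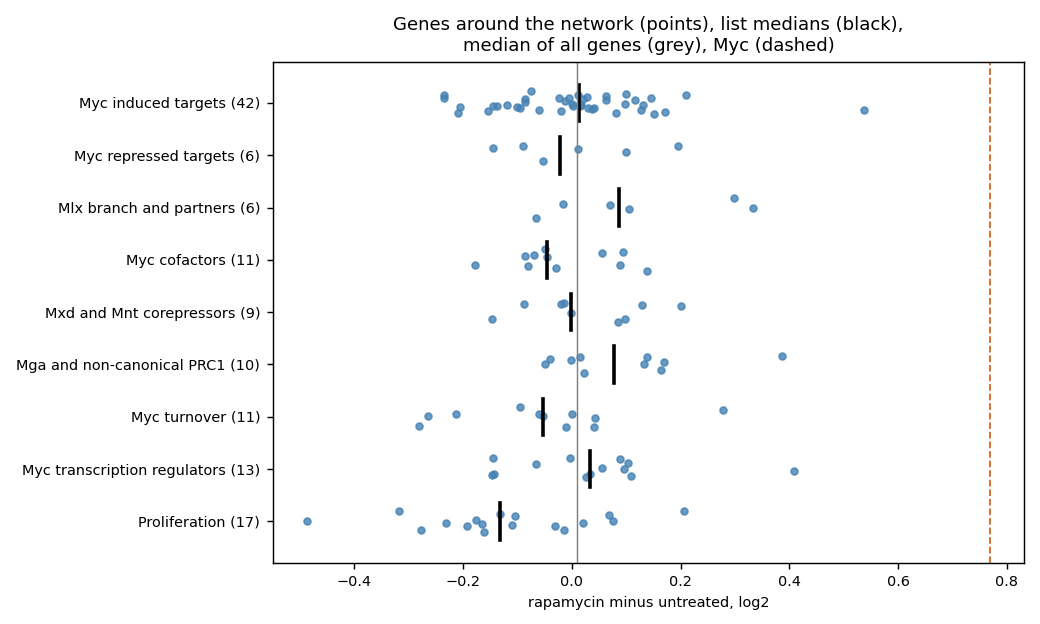
Difference between rapamycin and untreated arrays (horizontal axis, log2) for the measured genes of 9 lists around the network, with the number measured in brackets. List medians lie between -0.13 (proliferation) and 0.09 (Mlx branch and partners), around the median of all genes at 0.01, and the dashed line marks Myc at 0.77.

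Regulators of Myc transcription were 13 of 14 measured, 0 called, with a median of 0.03. Prdm1 encodes Blimp1. It was at 9.95, 9.81, 9.86, 9.43 and 9.52 in untreated arrays and at 10.18, 10.06, 10.11, 10.06 and 10.18 in rapamycin arrays. The groups did not overlap, with a difference of 0.41 (SE 0.09), and its limma adjusted p was 0.117. The cells of both groups had been sorted on the reporter of this gene, and the part of the sort in its difference was not tested. Irf4, which activates Myc in lymphocytes, had a difference of 0.11 (adjusted p = 0.626), and E2f1 of -0.15 (adjusted p = 0.652).

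Of 18 listed proliferation genes 17 were measured and 0 were called in either direction. The median difference was -0.13, and 13 of the 17, or 76.5%, had a negative difference, beside 46.9% of all genes. At an unadjusted p under 0.05, 1 was higher, or 5.88% beside 6.13% of all genes, and 3 were lower, or 17.6% beside 3.26% of all genes. Nusap1, a spindle gene, had a difference of -0.49 (SE 0.14, limma adjusted p = 0.212), Birc5, the gene of survivin, -0.28 and Tk1, a thymidine kinase gene, 0.21. Birc5 was at 3.95 ± 0.18 untreated and 3.68 ± 0.22 with rapamycin, around the lower quartile of all probe sets, 3.81 to 3.87. At that signal a change may not be measurable. The list mean was 6.03 to 6.27 in untreated and 5.91 to 6.10 in rapamycin arrays, with overlap. In all, 0 of 124 measured genes of the 9 lists were called in limma.

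**Figure D4:**
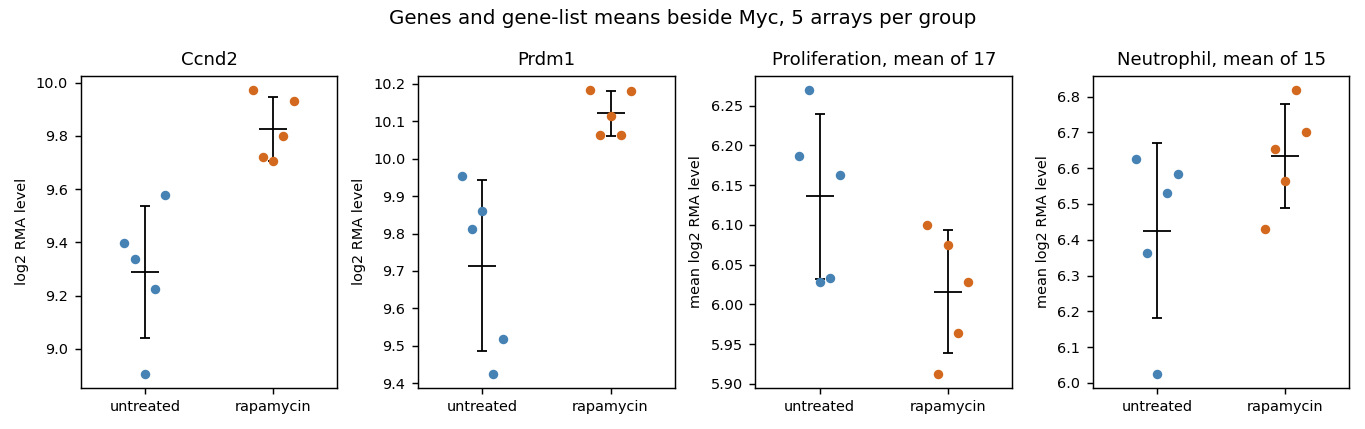
Log2 RMA level of Ccnd2 and Prdm1, and mean log2 level of the proliferation and neutrophil lists, on 5 untreated and 5 rapamycin arrays (points in replicate order, black marks mean ± SD, vertical axes not starting at 0). The groups do not overlap for the first pair and overlap for both lists.

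Markers of other marrow cells were read beside Myc, since granulocyte precursors and dividing cells also express it. Of 15 neutrophil and precursor markers 14 had a positive difference, or 93.3% beside 53.1% of all genes, with a median of 0.14. In limma 0 were called, while 5 were higher at an unadjusted p under 0.05, or 33.3% beside 6.13% of all genes, and 0 were lower. Their list mean was 6.03 to 6.63 in untreated and 6.43 to 6.82 in rapamycin arrays. Elane, the elastase gene, was at 6.48 ± 0.59 and 7.04 ± 0.28, and Mpo, the myeloperoxidase gene, at 6.96 ± 0.51 and 7.13 ± 0.32. Untreated replicate 1 had the highest neutrophil mean of its group and the highest Myc, whereas untreated replicate 5 had a neutrophil mean of 6.58 and the lowest Myc. In rapamycin arrays 1 to 5 the neutrophil mean was 6.43, 6.65, 6.57, 6.82 and 6.70, which ranks these arrays as Myc does. Myc was within 8.17 to 8.19 in rapamycin arrays 2, 4 and 5, so the order of these rests on small differences. Untreated replicate 3 had the lowest neutrophil mean of its group, 6.03, and a Myc of 7.27, the group median. Of 7 stem and progenitor markers 0 were called, with a list mean of 4.60 to 4.76 and 4.69 to 4.86. Of 11 mature B cell markers 0 were called, with a list mean of 5.99 to 6.15 and 5.98 to 6.13. At an unadjusted p under 0.05 in limma, 2 of the 11 were higher, or 18.2% beside 6.13% of all genes. At that p 3 were lower, or 27.3% beside 3.26% of all genes. Bach2 differed by -0.39 and Ebf1 by 0.36, and such opposite differences offset each other in the list mean. Among 11 plasma cell markers 10 had a positive difference, or 90.9% beside 53.1% of all genes, and 0 were called. In limma 2 of the 11 were higher at an unadjusted p under 0.05, or 18.2% beside 6.13% of all genes, and 0 were lower. In the 10 marker lists, the called members were Prg2, a granule gene of eosinophils, with a difference of 0.42 (limma adjusted p = 0.0473), and Ly6d, a surface antigen gene on the dendritic cell list, with 0.66 (adjusted p = 5.01e-04 in limma). On the list of Prg2, 5 of 9 genes had a negative difference and the median was -0.04, with -0.13 for Epx, the eosinophil peroxidase gene, and -0.21 for Cpa3, a mast cell protease gene. On that of Ly6d, 3 of 7 had a negative difference, among them Siglech with -0.23, and the median was 0.05. At an unadjusted p under 0.05 in limma, 3 of the 7 were higher, or 42.9% beside 6.13% of all genes, and 0 were lower. The mean of this list was 6.456 to 6.497 in untreated and 6.503 to 6.675 in rapamycin arrays, without overlap. Of its 7 genes, 1 was itself without overlap. Both Ly6d and Flt3, the latter with a difference of 0.41, are part of this mean, and the mean without them was not tested. Flt3 is also on the stem and progenitor list. The part of other cells in the Myc difference was not tested.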

How the data were processed

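The submitters' processing notes name RMA as the method behind the log2 values deposited by the authors. Its version, the genome build and scan dates are not given in the sources used here. A value table of 41345 probe sets on 10 arrays was used as deposited. A second deposited table, with 12280 of these rows at identical log2 values, holds 5 of the 10 members and served as an alternative. Symbols came from the platform annotation, which gave 1 symbol for 23521 probe sets, several for 1820 and none for 16004.

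Groups and replicate numbers came from the sample titles, and the design text gives 5 mice per group. The brightest probe set stood for each gene. Differences were fitted over all 22180 genes with limma 3.58.1 (R 4.3.3), using eBayes with a trend of variance on intensity and two-sided tests, without covariate or filter on low values, with Benjamini-Hochberg adjustment and a threshold of 0.05. Standard errors and intervals are moderated ones. The fit was tested on simulated data. Lists are described by counts and medians, with no set test.

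The members and lists were chosen with earlier results of these data known. Named genes are all members, the 3 genes of each list around the network with the smallest p, the 5 genes most like Myc, sex-linked genes, and markers. Of the markers, the ones named with values, and the targets named for their E-boxes, were picked after their values were seen. Quantile normalization hides a shift of all transcripts, and 5 arrays per group limit the precision. Figures were drawn with matplotlib 3.10.9.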

Additional observations from a re-analysis of the deposited data

Results flagged for a closer look

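Within groups of 5 arrays, 4 values lay far from the others, among 92 groups of values examined (46 genes in 2 groups), where chance gives about 1 in 20. Mnt was at 6.89 in untreated replicate 3, below the 7.00 to 7.04 of the other untreated arrays. Hspd1 was at 5.27 in untreated replicate 1, against 5.59 to 5.72 in the others. In rapamycin replicate 5, Cip2a was at 3.97 against 4.30 to 4.43, and E2f1 was at 6.94 against 7.08 to 7.12. None of these genes passed the test in limma.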

How the results depend on the processing

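The Myc difference stayed between 0.71 and 0.86 under all 21 alternatives, and its call was kept under 19. With the replicate numbers of the titles as a block the difference was 0.77 with a limma adjusted p of 0.0684, and 0 members were called, with 21 genes called over the whole table in place of 34. Whether same-numbered arrays shared more than a number is not given in the labels. Their deviations from the group means had r from -0.08 to 0.04, and no untreated array correlated best with its own number. Without rapamycin replicate 4 and untreated replicate 3 together, an alternative chosen after seeing the data, it was 0.73 with an adjusted p of 0.0874, and 0 members were called. Leaving out single arrays gave 0.71 to 0.86 and 1 member called each time. List genes called rose from 0 to 1 with the block, with array weights, among genes above the median level and in the filtered table, each time Ccnd2. Leaving out single arrays gave 0 to 1 (Ccnd2 without untreated replicate 5, Nusap1 without untreated replicate 3), and the added pair 1 (Nusap1). Over single arrays left out, Max ran from -0.017 to 0.088, Mxd3 from -0.095 to 0.029, Mxd4 from -0.19 to 0.079 and Mnt from -0.074 to 0.0048. Directions of members near 0 turned in 6 of 181 cases: Mxd3 without untreated replicate 1, Max without untreated replicate 4, Mnt without rapamycin replicate 1 (0.00035) or 3, and Mxd4 without rapamycin replicate 4 or the added pair (0.029). Genes called over the whole table ranged from 17 to 107 (34 in the fit reported). Low signal limits Mycn and Mycl, and Birc5 among the proliferation genes.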
